A study of Mus musculus with 16 samples.

Results

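The Slc25 genes encode the mitochondrial carriers, the largest family of solute transporters in the mouse. Members were taken by name: every gene model of the deposited table whose symbol begins with Slc25a, apart from the pseudogene Slc25a5-ps. The rule found 47 of 57010 gene models, and it used no measured value. RNA was sequenced from adult cardiomyocytes of wild-type C57BL/6 mice injected with AAV9, an adeno-associated virus used to deliver genes to the heart, as the empty AAV9-Vector or as AAV9-PRODH. The virus product, proline dehydrogenase, is the enzyme of mitochondria that starts proline breakdown. Surgery, either a sham operation or transverse aortic constriction (TAC), in which a narrowed aortic arch loads the left ventricle with pressure, followed 3 weeks after injection. Cardiomyocytes were isolated 4 weeks later. With 4 libraries each, the 4 groups were the vector with sham or TAC and PRODH with sham or TAC, and every animal carried one of the viruses. The virus is described as heart-specific; its promoter and the mice's age beyond adult were not given in the sources used here. Nothing in the labels ties a library to its own mouse, so p-values reflect only variation among libraries, which may be technical.

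Carriers of this family sit in the mitochondrial inner membrane, which small charged molecules do not cross unaided, and most of them exchange one solute for another. In heart muscle the best known are the ADP/ATP carriers, which pass ATP out to the myofibrils, the phosphate carrier, which returns phosphate for ATP synthesis, and the carnitine carrier, which brings in fatty acyl groups. Others move the aspartate, glutamate, malate and oxoglutarate of the shuttle that brings reducing equivalents into the matrix, or supply the matrix with cofactors, nucleotides and iron. A few members carry substrates that are still unknown, and Slc25a46 lies in the outer membrane.

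The upstream sequences below are examples from the members named in the results. They cover Slc25a4 as the most abundant carrier, the isoform pair Slc25a12 and Slc25a13, and Slc25a42 and Slc25a33 as large falls after TAC. Slc25a25 is included as the carrier called after sham. Each sequence is the stretch of 250 bases before a transcript start in RefSeq (GRCm38.p6). All lie on the minus strand and are written 5′ to 3′ toward the start. Slc25a25 has 3 starts in RefSeq, and the one shown was chosen because it alone holds a motif match. Capitals mark matches to any of the 4 motifs searched on both strands. Slc25a22 and Slc25a24, the largest fall and the largest rise after TAC under the vector, are not shown. None of their starts held a match.
Slc25a4, chr8:46211063-46211312: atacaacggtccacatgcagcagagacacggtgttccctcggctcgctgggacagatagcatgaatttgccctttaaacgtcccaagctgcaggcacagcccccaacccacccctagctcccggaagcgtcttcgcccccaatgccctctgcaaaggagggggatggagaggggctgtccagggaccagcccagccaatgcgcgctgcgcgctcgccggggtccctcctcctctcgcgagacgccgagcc
Slc25a12, chr2:71367756-71368005: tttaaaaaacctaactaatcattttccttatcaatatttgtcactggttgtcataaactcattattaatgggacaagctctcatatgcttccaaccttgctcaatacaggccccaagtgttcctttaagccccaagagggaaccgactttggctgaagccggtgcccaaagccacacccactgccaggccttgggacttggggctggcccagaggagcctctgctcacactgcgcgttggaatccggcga
Slc25a13, chr6:6217174-6217423: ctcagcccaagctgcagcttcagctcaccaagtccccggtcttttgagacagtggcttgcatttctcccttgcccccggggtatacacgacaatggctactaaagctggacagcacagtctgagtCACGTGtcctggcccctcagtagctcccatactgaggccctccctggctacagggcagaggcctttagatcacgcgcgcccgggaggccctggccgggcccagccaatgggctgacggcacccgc
Slc25a42, chr8:70212282-70212531: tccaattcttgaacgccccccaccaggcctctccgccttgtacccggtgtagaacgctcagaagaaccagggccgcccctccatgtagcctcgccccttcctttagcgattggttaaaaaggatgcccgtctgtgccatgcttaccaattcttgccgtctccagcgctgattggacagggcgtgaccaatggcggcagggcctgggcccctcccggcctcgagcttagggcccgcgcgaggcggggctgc
Slc25a33, chr4:149774268-149774517: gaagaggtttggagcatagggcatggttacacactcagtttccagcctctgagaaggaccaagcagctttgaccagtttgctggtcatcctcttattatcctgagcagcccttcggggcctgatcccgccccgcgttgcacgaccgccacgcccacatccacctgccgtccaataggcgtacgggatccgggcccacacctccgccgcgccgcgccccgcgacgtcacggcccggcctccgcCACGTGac
Slc25a25, chr2:32424067-32424316: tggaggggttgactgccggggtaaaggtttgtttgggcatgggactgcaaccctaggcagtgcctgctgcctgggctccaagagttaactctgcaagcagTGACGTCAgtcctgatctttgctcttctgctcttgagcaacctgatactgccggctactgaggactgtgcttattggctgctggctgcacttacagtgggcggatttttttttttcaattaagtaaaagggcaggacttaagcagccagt
The motifs were the estrogen-related receptor element TNAAGGTCA, the NRF1 site (GCGC, any 2 bases, then GCGC again), the E-box CACGTG and the cAMP response element TGACGTCA. RefSeq gave 46 starts for 36 of the 47 members. The E-box was found at 8 of these starts (17.4%), in Slc25a1, Slc25a13, Slc25a14, Slc25a15, Slc25a31, Slc25a33 and Slc25a36, against 6.02% of all 32851 promoters of this length. Slc25a14 gave 2 of the 8 through overlapping windows that hold the same site. The cAMP response element was found at 2 starts (4.35%), in Slc25a25 and Slc25a36, against 1.55% of all promoters. The NRF1 site also lay at 2 starts, in Slc25a3 and Slc25a31, with 4.98% of all promoters holding it. No member start held the estrogen-related receptor element, which 1.14% of all promoters hold. A match is a run of letters and not a measured binding site.

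Total counts ran from 15987580 to 22680212 per library. Genes of the mitochondrial genome and their nuclear copies took 51.5% to 60.9% of them, which left 6479074 to 10544627 counts for all other genes. Their share was 56.1% to 60.9% in vector sham and 57.6% to 60.8% in PRODH sham. After TAC it was 51.5% to 53.8% with the vector and 53.3% to 54.4% with PRODH, below every sham library. Mean scaling factors (TMM) were 0.875 and 0.888 in vector and PRODH sham, and 1.12 and 1.15 in vector and PRODH TAC. Prodh, the gene named by the virus, had group means of 10.95 CPM (counts per 1000000 after scaling) in vector sham and 13.8 in PRODH sham. After TAC its means were 7.28 CPM with the vector and 13.6 with PRODH. Whether its counts include reads of the viral copy is not known. Markers of the labelled cell type were abundant: 8 cardiomyocyte genes summed to 23971 to 35606 CPM per library, against 156 to 1315 for 8 fibroblast, 301 to 702 for 8 endothelial and 107 to 335 for 8 myeloid genes. None of these markers was at 0 over any group. A further list of 8 mural genes (pericytes and smooth muscle) summed to 406 to 562 CPM per library. The fibroblast sum was 156 to 213 CPM in vector sham and 1244 to 1315 after TAC; with PRODH it was 191 to 200.3 after sham and 347 to 443 after TAC.

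Together the carriers made up 1.22% ± 0.0505 (SD, n = 4) of the counts outside the mitochondrial genome and its copies in vector sham and 0.904% ± 0.0586 in vector TAC. The shares in PRODH sham and PRODH TAC were 1.19% ± 0.0566 and 0.955% ± 0.0285. In scaled counts the family summed to 5676 ± 341 CPM in vector sham and 3822 ± 221 CPM in vector TAC. Slc25a4, the ADP/ATP carrier ANT1 of heart and muscle, and Slc25a3, the phosphate carrier, held most of this. Slc25a4 alone took 54.2% of the family's CPM in vector sham and 51.2% in PRODH TAC.

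Levels of different members were compared only per length, as CPM per kilobase of gene length. In vector sham Slc25a4 stood at 1599 ± 113 (SD, n = 4) and Slc25a3 at 964 ± 56.3 CPM per kilobase. The oxoglutarate and malate carrier Slc25a11 (178 ± 14.4) and the second ADP/ATP carrier Slc25a5 (170 ± 14.9) came next and overlapped in their spread. The carnitine carrier Slc25a20 followed at 72.4 ± 1.87, then the glutathione carrier Slc25a39 at 35.0 ± 5.36 and Slc25a34, a relative of the dicarboxylate carriers, at 28.8 ± 1.84. Both aspartate and glutamate carriers were in the upper range, with Slc25a13 (citrin) at 25.1 ± 0.570 and Slc25a12 (aralar) at 18.3 ± 1.06 CPM per kilobase. The lowest of the tested members was the orphan Slc25a53 at 0.210 ± 0.0415. Slc25a39 and Slc25a34 did not differ beyond their spread.

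**Figure D1:**
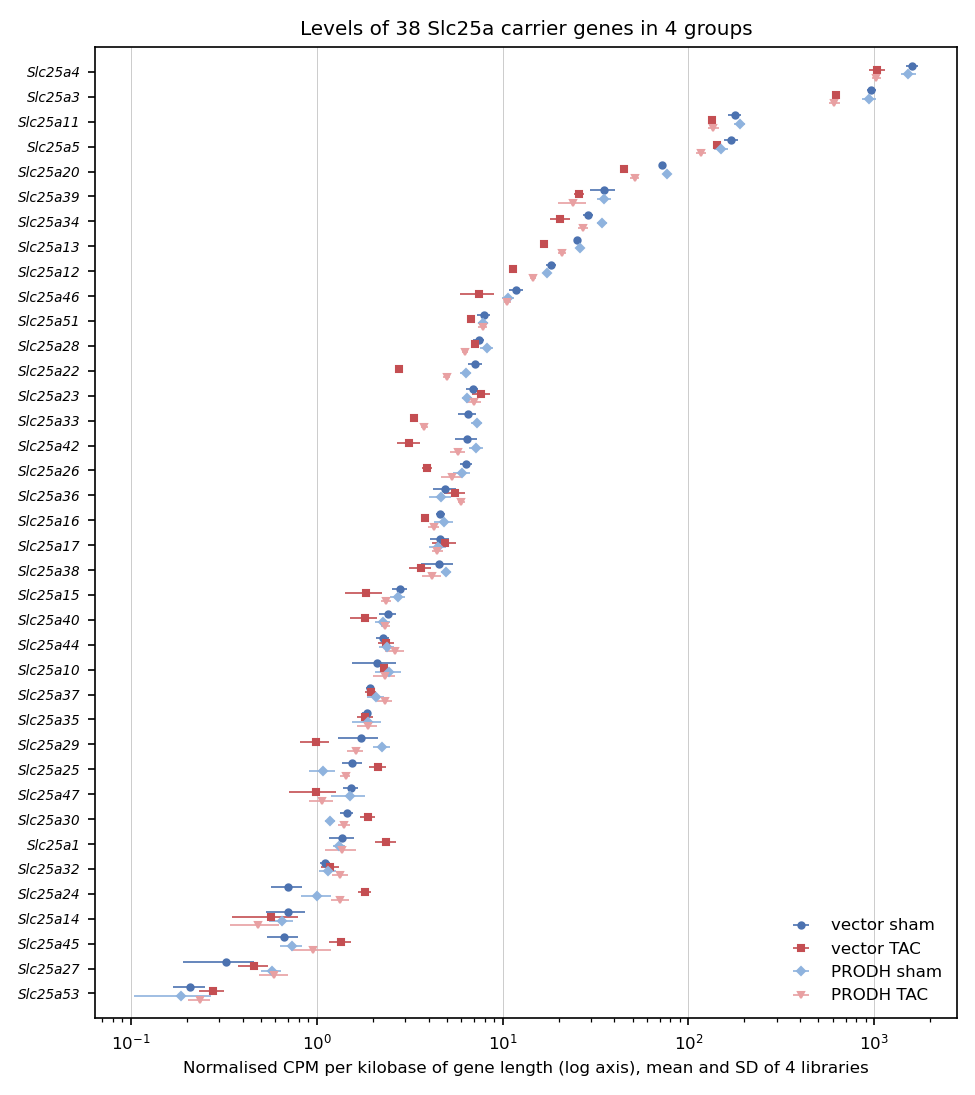
Level of 38 carriers in CPM per kilobase of gene length on a log axis, as group mean and SD of 4 libraries, ordered by vector sham. Group means of Slc25a4 and Slc25a3 lie between 609 and 1599, and that of the next carrier, Slc25a11, reaches 188 at most.

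Of the 47 members, 39 had enough counts to be tested. Slc25a41, Slc25a48 and Slc25a54 had no count in any library. The other 5 untested members had few counts, given here as sums over 4 libraries for sham and TAC with the vector and then for sham and TAC with PRODH. They were 5, 11, 2 and 10 for the glutamate carrier Slc25a18. They were 8, 5, 11 and 3 for the ornithine carrier Slc25a2 and 20, 8, 23 and 31 for the testis ADP/ATP carrier Slc25a31. The oxodicarboxylate carrier Slc25a21 had 3, 0, 1 and 1, and the orphan Slc25a43 had 1, 5, 3 and 6. Fractional counts, which arise where reads are divided between similar sequences, were found in all 16 libraries for Slc25a3, Slc25a35 and Slc25a46. Slc25a11 and Slc25a33 had them in 14 libraries, Slc25a37 in 8, and Slc25a5 and Slc25a25 in 6, so the levels of these genes are less certain.

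The first question of the study was what pressure overload did under the control vector. Most carriers fell. After TAC 22 of 39 tested members were lower and 5 higher, and 12 did not pass the test (edgeR, Benjamini-Hochberg adjusted over 14066 genes). These 27 are 69.2% of the tested members, beside 56.5% of all genes called in this comparison, 26.2% lower and 30.3% higher. The same shares of all genes stand beside the counts by role that follow. The members' median log2 fold change was -0.30, and that of all tested genes 0.02. Group values did not overlap for 19 lower members and 5 higher ones, against 21.1% and 26.1% of all tested genes. Scaled by library size alone, which raises the median of all genes to 0.37, 11 members were lower and 15 higher, and their median was 0.04. Falls were thus falls relative to the other genes of the same library. In the same libraries all 8 fibroblast, all 8 endothelial and all 8 myeloid markers rose and 7 of 8 cardiomyocyte markers fell. Of 8 mural markers 5 rose and 2 fell. The part of cell composition in the carrier values was not tested. In such bulk samples fewer cells of a type and less RNA per cell cannot be told apart.

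**Figure D2:**
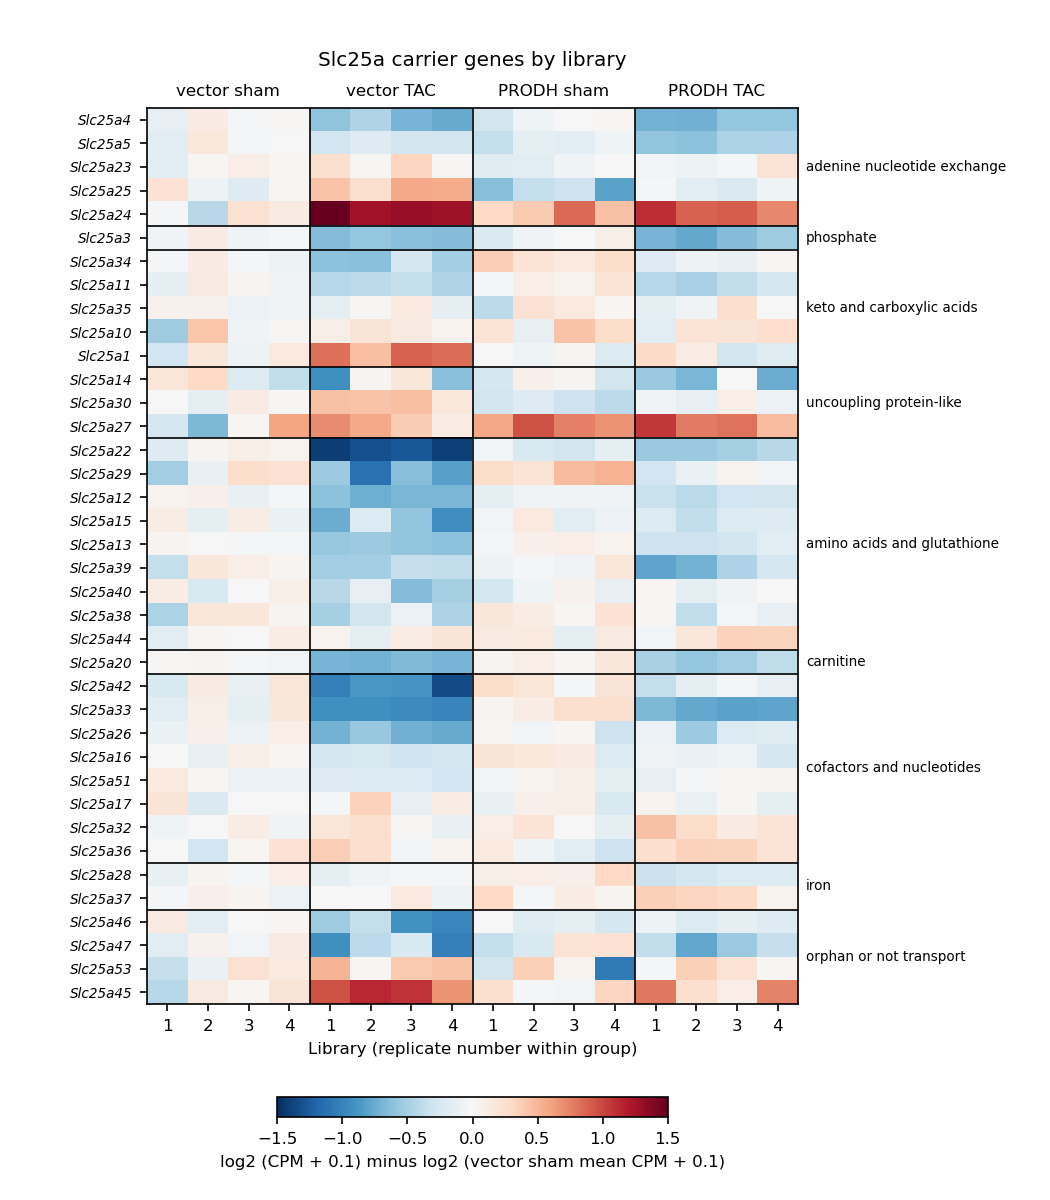
Values of 38 carriers in each of the 16 libraries, as log2 of CPM plus 0.1 minus the same for the vector sham mean, with colours saturating at 1.5. Blue falls fill the vector TAC columns for most amino acid and cofactor carriers, while Slc25a24, Slc25a1 and Slc25a45 are red there.

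Adenine nucleotide carriers split. Slc25a4 stood at 2816, 3347, 3046 and 3106 CPM in vector sham libraries 1 to 4 and at 2033, 2257, 1894 and 1816 CPM in vector TAC. Every TAC library lay below every sham library, and the fold change was -0.62 ± 0.08 (log2 ± SE, adjusted p = 1.45e-07), or 1.54 times lower. Its paralog Slc25a5 went from 189, 234, 209 and 209.6 CPM to 172, 184, 174 and 174 CPM, again without overlap (-0.26 ± 0.07, adjusted p = 0.00326). That value turned to 0.10 under library size alone, so the direction for Slc25a5 depends on the scaling. A pair of calcium-regulated carriers of ATP-Mg and phosphate moved the other way. Slc25a24 had 2.35, 1.78, 2.84 and 2.65 CPM in vector sham and 7.02, 5.87, 6.08 and 5.96 CPM in vector TAC, the largest rise in the family (1.38 ± 0.15, adjusted p = 6.08e-09). Slc25a25 rose from 5.98, 4.87, 4.47 and 5.18 CPM to 6.93, 6.08, 7.65 and 7.59 CPM (0.47 ± 0.12, adjusted p = 0.00199), with all TAC libraries above all sham libraries for both genes. The third of these carriers, Slc25a23, was at 0.16 ± 0.09 (adjusted p = 0.127).

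The phosphate carrier Slc25a3 fell about as far as Slc25a4. It had 1247, 1404, 1246 and 1272 CPM in vector sham and 824, 863, 837 and 822 CPM in vector TAC (-0.63 ± 0.07, adjusted p = 1.63e-08), with no overlap. The carnitine carrier Slc25a20, which exchanges acylcarnitine for free carnitine, stood at 130.3, 133, 128 and 125 CPM before and 79.4, 79.1, 81.8 and 79.7 CPM after TAC. This is a fold change of -0.69 ± 0.06 (adjusted p = 1.63e-10). The sham and TAC libraries were far apart beside a spread of only 3.33 and 1.25 CPM (SD, n = 4).

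Among carriers of keto and carboxylic acids 2 of 5 fell and 1 rose. Slc25a11 went from 277, 334, 312 and 293 CPM to 226, 231, 237 and 222 CPM (-0.41 ± 0.07, adjusted p = 1.46e-05), a call lost under library size alone (adjusted p = 0.534). Slc25a34 went from 75.7, 84.1, 75.2 and 72.8 CPM to 50.2, 49.96, 64.4 and 53.9 CPM (-0.50 ± 0.08, adjusted p = 4.45e-06; 0.139 under library size alone). In both genes no TAC library reached the sham range. Slc25a1, the citrate carrier that provides acetyl groups for lipid synthesis, instead rose from 1.85, 2.59, 2.17 and 2.54 CPM to 4.13, 3.17, 4.30 and 4.17 CPM (0.77 ± 0.16, adjusted p = 0.000211). The dicarboxylate carrier Slc25a10 (0.10 ± 0.16) and the orphan Slc25a35 (-0.03 ± 0.15) did not pass.

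Carriers of amino acids and glutathione fell in 8 of 9 cases. Slc25a22, which takes glutamate into the matrix, had the largest fall of the whole family. It stood at 17.4, 20.5, 21.3 and 20.8 CPM in vector sham and at 7.44, 7.95, 8.23 and 7.53 CPM in vector TAC, 2.58 times lower (-1.37 ± 0.09, adjusted p = 8.67e-14). Slc25a12, the aspartate and glutamate carrier of the malate and aspartate shuttle in heart, went from 121, 122, 108 and 114 CPM to 75.9, 69.6, 71.9 and 71.9 CPM (-0.68 ± 0.06, adjusted p = 2.46e-10). The related Slc25a13 fell from 78.2 ± 1.78 to 52.2 ± 1.04 CPM (SD, n = 4; -0.58 ± 0.06, adjusted p = 4.03e-09). None of these genes had overlapping groups. Slc25a29, a carrier of basic amino acids, went from 2.35, 3.15, 4.11 and 4.02 CPM to 2.30, 1.51, 2.15 and 1.90 CPM (-0.80 ± 0.18, adjusted p = 0.000324), where the highest TAC library came within 0.05 CPM of the lowest sham library.

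The ornithine carrier Slc25a15 fell by 0.60 on the log2 scale (adjusted p = 0.000129) and the glutathione carrier Slc25a40 by 0.41 (adjusted p = 0.00552). Slc25a39, its more abundant relative, went from 45.9, 66.2, 63.1 and 60.9 CPM to 41.0, 41.3, 46.4 and 45.7 CPM (-0.44 ± 0.11, adjusted p = 0.00157), and its groups overlapped through vector sham library 1. Slc25a38, the glycine carrier of heme synthesis, was at -0.34 ± 0.13 (adjusted p = 0.0250). That call was lost without vector sham library 2 or 3 or vector TAC library 1 or 4 (adjusted p = 0.0796, 0.0752, 0.0914 and 0.0733). Under library size alone Slc25a15, Slc25a39 and Slc25a40 did not pass (adjusted p = 0.107, 0.446 and 0.748) and Slc25a38 turned to 0.015. The branched-chain amino acid carrier Slc25a44 was the exception of this group, at 0.05 ± 0.11.

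Cofactor and nucleotide carriers fell in 6 of 9 cases. Slc25a42, which carries coenzyme A, stood at 17.5, 22.5, 19.0 and 23.3 CPM in vector sham and 10.04, 11.2, 11.1 and 8.02 CPM in vector TAC (-1.03 ± 0.11, adjusted p = 2.24e-09). Slc25a33, a pyrimidine nucleotide carrier, went from 11.0, 13.0, 11.2 and 13.8 CPM to 6.42, 6.39, 6.24 and 6.13 CPM (-0.96 ± 0.10, adjusted p = 1.29e-09). Slc25a26, which imports the methyl donor S-adenosylmethionine, went from 11.4, 12.9, 11.5 and 13.2 CPM to 7.44, 8.21, 7.39 and 7.21 CPM (-0.70 ± 0.11, adjusted p = 1.97e-06). Sham and TAC libraries were fully separate for all of them. Smaller falls were measured for Slc25a16, which is linked to coenzyme A (-0.26 ± 0.09), and for the NAD carrier Slc25a51 (-0.22 ± 0.07). These last values turned to 0.093 and 0.13 under library size alone. Slc25a36, the paralog of Slc25a33, was at 0.17 ± 0.10 (adjusted p = 0.159).

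Neither mitoferrin, the iron carriers Slc25a28 (-0.07 ± 0.09) and Slc25a37 (0.02 ± 0.10), passed after TAC. Of the uncoupling protein-like members Slc25a30 rose, from 5.20, 4.67, 5.67 and 5.24 CPM to 7.06, 7.02, 7.13 and 5.80 CPM without overlap (0.38 ± 0.11, adjusted p = 0.00480). Slc25a14 and Slc25a27 of that group, the peroxisomal Slc25a17, the folate carrier Slc25a32 and the orphan Slc25a53 passed in none of the comparisons, with values between -0.30 and 0.50 here. Slc25a46, a protein of the outer membrane linked to mitochondrial shape, fell from 56.6, 46.0, 51.6 and 52.7 CPM to 35.7, 40.4, 27.5 and 26.2 CPM (-0.67 ± 0.10, adjusted p = 3.01e-06). Here vector TAC libraries 1 and 2 lay well above libraries 3 and 4. The orphan Slc25a45 was 1.99 times as high, going from 1.21, 1.83, 1.69 and 1.90 CPM to 3.32, 3.74, 3.62 and 2.71 CPM (0.99 ± 0.19, adjusted p = 6.61e-05), and the orphan Slc25a47 fell by 0.65 (adjusted p = 0.00871; 0.220 under library size alone).

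The second question was how hearts with the PRODH virus differed from vector hearts after TAC. With PRODH, 6 of 9 carriers of amino acids and glutathione and 4 of 9 carriers of cofactors and nucleotides were higher. All 5 carriers that had risen after TAC under the vector were lower. Of these, Slc25a24 and Slc25a1 passed the interaction test given below, and Slc25a25, Slc25a30 and Slc25a45 did not (adjusted p = 0.811, 0.593 and 0.105). Slc25a25 was also lower with PRODH after sham (-0.51). Among the carriers higher with PRODH, the interaction was not passed by Slc25a15, Slc25a20, Slc25a29, Slc25a34, Slc25a37 or Slc25a51 (adjusted p = 0.0887, 0.386, 0.325, 0.318, 0.541 and 0.137). After sham, Slc25a29 and Slc25a34 were at 0.37 and 0.25 with PRODH, without a call. Of 39 tested members 14 were higher and 6 lower, 20 in all or 51.3%, beside 43.1% of all genes called, 18.5% higher and 24.6% lower. The median was 0.15 for the members and -0.04 for all tested genes. Group values did not overlap for 11 higher and 6 lower members, against 16.7% and 22.6% of all tested genes. All 20 calls were also made under library size alone. Vector TAC is the reference here and the TAC arm above, so the values of both comparisons rest on the same 4 libraries and their opposite signs are no independent result. All 8 fibroblast and all 8 endothelial markers and 7 of 8 myeloid markers were lower in PRODH TAC than in vector TAC. Of 8 cardiomyocyte markers 4 were higher and 1 lower, and of 8 mural markers 2 were higher and 4 lower. The part of these markers in the carrier values was not tested.

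**Figure D3:**
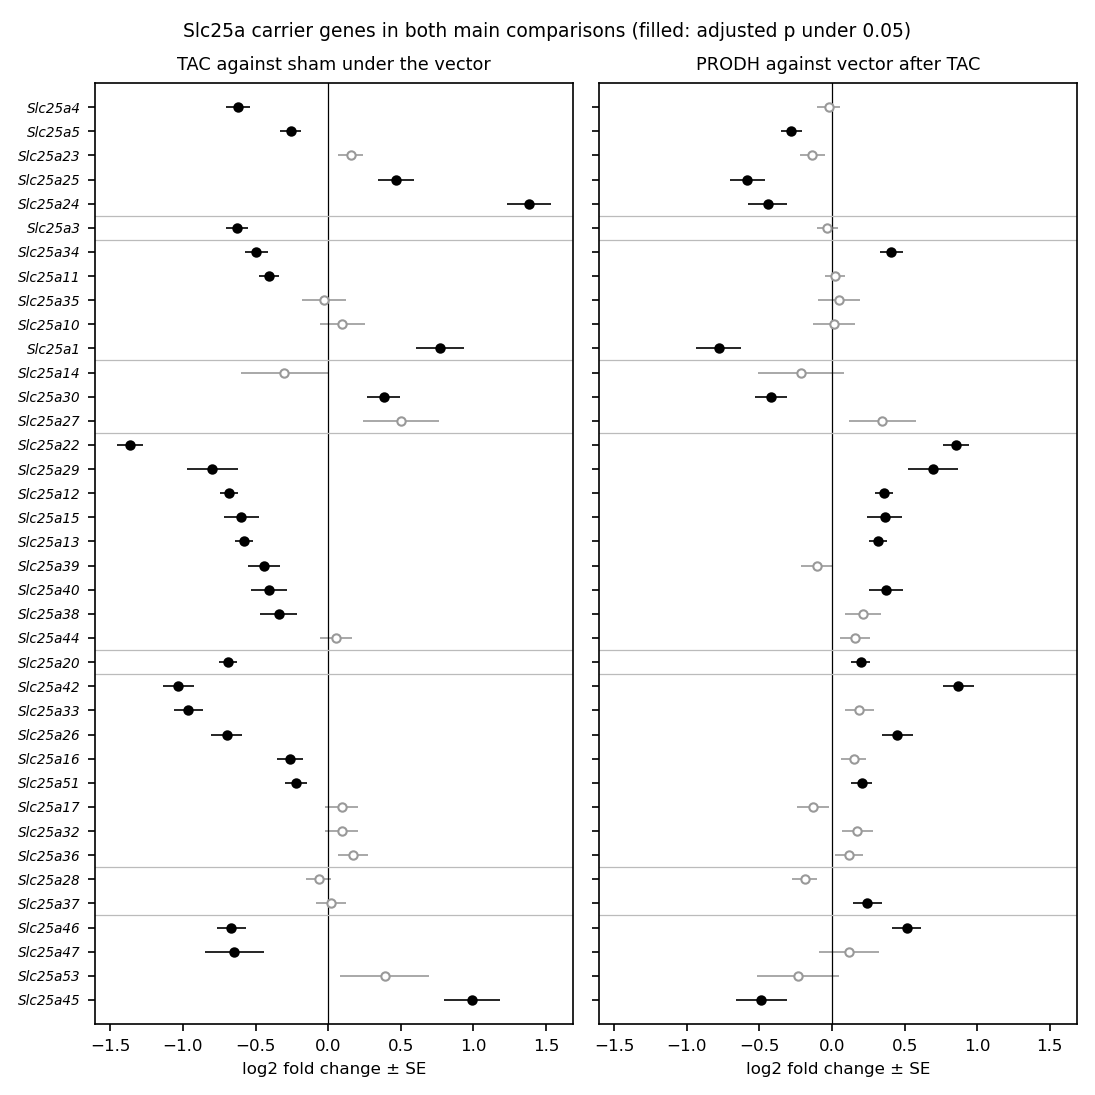
Log2 fold change with SE for 38 carriers in both main comparisons, grouped by role from adenine nucleotide carriers at the top to orphans at the bottom; filled points passed the test. Slc25a22 and Slc25a42 are far left for TAC against sham and far right for PRODH against vector, and Slc25a4 and Slc25a3 lie near 0 on the right.

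Slc25a22, the glutamate carrier, stood at 13.6, 13.6, 14.1 and 14.96 CPM in PRODH TAC, all above the vector TAC range of 7.44 to 8.23 CPM, or 1.81 times as high (0.85 ± 0.09 log2 ± SE, adjusted p = 5.12e-09). Slc25a29 stood at 2.78, 3.18, 3.53 and 3.31 CPM (0.69 ± 0.17, adjusted p = 0.00154), likewise above all vector TAC libraries. Slc25a12 had 91.7, 87.7, 94.9 and 96.1 CPM (0.36 ± 0.06, adjusted p = 4.21e-05), and Slc25a13 had 65.1 ± 3.23 CPM (SD, n = 4; 0.32 ± 0.06, adjusted p = 0.000145). For both aspartate and glutamate carriers PRODH TAC lay above vector TAC and below vector sham. Slc25a15 (0.36 ± 0.12, adjusted p = 0.0152) and Slc25a40 (0.37 ± 0.12, adjusted p = 0.0120) passed with overlapping groups. The Slc25a15 call was lost without vector TAC library 1 or 4 (adjusted p = 0.0605 and 0.0824) and that of Slc25a40 without vector TAC library 3 (0.0566). Slc25a39, with 34.0, 36.1, 42.7 and 49.2 CPM, was at -0.11 ± 0.11 (adjusted p = 0.459).

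Among cofactor carriers, Slc25a42 had 16.1, 18.5, 20.2 and 18.9 CPM, with no library in the vector TAC range of 8.02 to 11.2 CPM, the largest rise of the family here (0.87 ± 0.11, adjusted p = 1.09e-07). Slc25a26 had 11.5, 8.39, 10.6 and 10.8 CPM (0.45 ± 0.10, adjusted p = 0.000911), of which the lowest was close to the highest vector TAC library at 8.21 CPM. Slc25a51 (0.21 ± 0.07, adjusted p = 0.0228) also passed. Its call was lost without vector TAC library 4 or PRODH TAC library 3 (adjusted p = 0.0694 and 0.0638). Slc25a33 had 7.60, 7.15, 6.95 and 7.01 CPM, above each vector TAC library, but at 0.19 ± 0.10 it did not pass (adjusted p = 0.130).

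The most abundant carriers showed no call between the viruses after TAC. Slc25a4 had 1879, 1865, 2057 and 2066 CPM in PRODH TAC, inside the vector TAC range, and the difference was -0.02 with a 95% interval of -0.19 to 0.14 (adjusted p = 0.833). Slc25a3 had 798, 758, 821 and 892 CPM (-0.03, interval -0.18 to 0.11, adjusted p = 0.739). Slc25a11 had 226, 217, 235 and 253 CPM (0.02, interval -0.12 to 0.17, adjusted p = 0.830). For each of these genes the interval ends short of the size of its fall after TAC under the vector. Slc25a20 was slightly higher with PRODH, at 91.8, 86.3, 89.7 and 99.0 CPM (0.20 ± 0.06, adjusted p = 0.0128), and Slc25a5 lower, at 139, 137, 151 and 153 CPM (-0.28 ± 0.07, adjusted p = 0.00245), both without overlap.

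Slc25a1, the citrate carrier that had risen under the vector, had 2.82, 2.48, 1.87 and 2.01 CPM in PRODH TAC, below every vector TAC library (-0.78 ± 0.16, adjusted p = 0.000175). Slc25a25 had 5.03, 4.54, 4.39 and 4.88 CPM (-0.58 ± 0.12, adjusted p = 0.000236) and Slc25a24 had 5.27, 4.50, 4.59 and 4.02 CPM (-0.44 ± 0.13, adjusted p = 0.00757). Slc25a30, at 4.99, 4.75, 5.57 and 4.88 CPM, was also below every vector TAC library (-0.42 ± 0.11, adjusted p = 0.00228). Slc25a45 had 2.94, 1.98, 1.79 and 2.83 CPM and overlapped with vector TAC (-0.49 ± 0.18, adjusted p = 0.0251). That call was lost without vector TAC library 2 or 3 or PRODH TAC library 2 or 3 (adjusted p = 0.0672, 0.0647, 0.0856 and 0.107). Nearly all fibroblast, endothelial and myeloid markers were lower in the same comparison, while cardiomyocyte and mural markers went both ways. The part of these markers in the carrier values was not tested.

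Slc25a46 and Slc25a34 were among the rises. Slc25a46 had 49.2, 44.8, 46.7 and 45.1 CPM in PRODH TAC (0.51 ± 0.10, adjusted p = 0.000161), all above the highest vector TAC library at 40.4 CPM. Slc25a34 had 67.1, 73.0, 71.1 and 78.8 CPM, all above vector TAC (0.41 ± 0.08, adjusted p = 0.000115). Mitoferrin 1, Slc25a37, passed narrowly (0.24 ± 0.10, adjusted p = 0.0445), and missed without any one of vector TAC libraries 1, 2 and 4 or PRODH TAC libraries 1, 2 and 3 (adjusted p = 0.0739 to 0.126) or with no filter on low counts (0.0803).

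**Figure D4:**
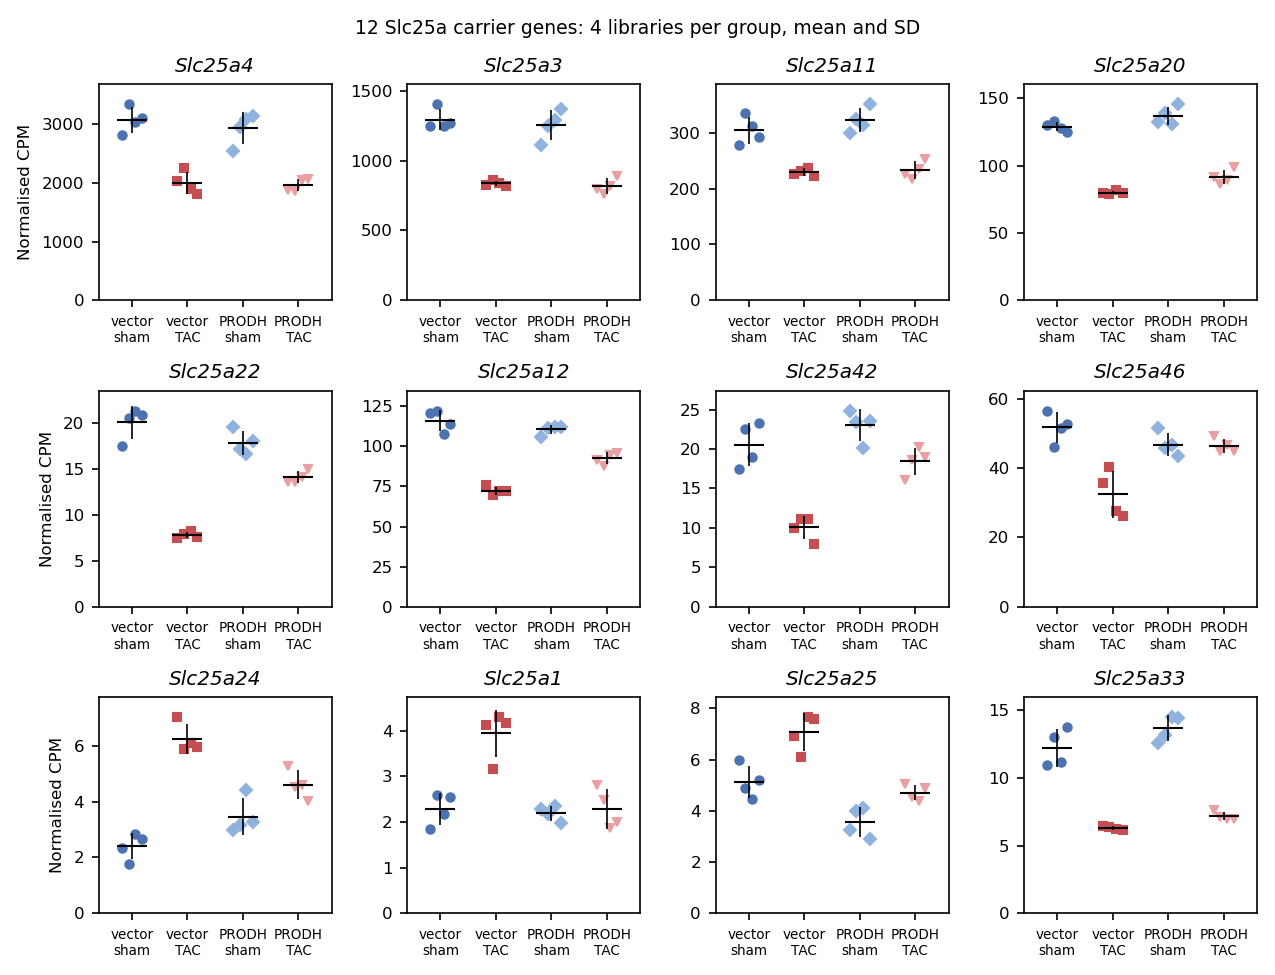
Normalised CPM of 12 carriers in each library, with the mean and SD of the 4 libraries of a group; every axis starts at 0. Both TAC groups sit together for Slc25a4, Slc25a3 and Slc25a11. For Slc25a33 PRODH TAC lies just above vector TAC without overlap, and both lie below the sham groups. PRODH TAC lies above vector TAC for Slc25a22, Slc25a12, Slc25a42 and Slc25a46 and below it for Slc25a24, Slc25a1 and Slc25a25.

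Under the PRODH virus the carriers of high abundance fell after TAC as well. Of 39 members 14 were lower and 3 higher than in PRODH sham, 43.6% in all beside 35.0% of all genes, 17.8% lower and 17.2% higher. The median was -0.18, beside 0.02 for all genes. Groups did not overlap for 14 lower and 3 higher members (17.4% and 17.3% of all tested genes). The split changed to 4 lower and 16 higher under library size alone, which moves the median of all genes to 0.40, and the higher count fell to 1 without PRODH sham library 4 or PRODH TAC library 1. In these libraries 7 of 8 fibroblast, 7 of 8 endothelial, 6 of 8 mural and 1 of 8 myeloid markers rose after TAC. Of 8 cardiomyocyte markers 5 fell and 1 rose. The part of these markers in the carrier values was not tested. Slc25a4 stood at 2541, 2954, 3101 and 3141 CPM in PRODH sham, against 1865 to 2066 in PRODH TAC (-0.58 ± 0.08, adjusted p = 2.53e-06). Slc25a3 stood at 1112, 1248, 1293 and 1372 CPM (-0.62 ± 0.07, adjusted p = 1.32e-07) and Slc25a20 at 133, 139, 131 and 146 CPM (-0.58 ± 0.06, adjusted p = 3.28e-08). The fall of Slc25a33, from 12.5, 13.2, 14.5 and 14.5 CPM, was the largest (-0.93 ± 0.09, adjusted p = 8.23e-09).

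Among amino acid and cofactor carriers, Slc25a22 went from 19.5, 17.1, 16.6 and 18.1 CPM to the 13.6 to 14.96 CPM given above (-0.34 ± 0.08, adjusted p = 0.00193), and Slc25a12 from 106, 112, 112 and 112 CPM (-0.25 ± 0.06, adjusted p = 0.00227). Both still had fully separate groups, and under library size alone they turned to 0.036 and 0.12. Slc25a42 began at 24.9, 23.4, 20.1 and 23.6 CPM (-0.32 ± 0.10, adjusted p = 0.0145) with overlapping groups, and its call was lost without PRODH sham library 1, 2 or 4 or PRODH TAC library 1 (adjusted p = 0.0606 to 0.0849). Slc25a29, from 4.14, 3.92, 4.76 and 4.93 CPM, was at -0.47 ± 0.16 (adjusted p = 0.0197) and was lost without PRODH sham library 3 or 4 or PRODH TAC library 1 (adjusted p = 0.0820, 0.0964 and 0.0693). Slc25a11 began at 299, 325, 314 and 351 CPM (-0.47 ± 0.07, adjusted p = 6.43e-06), Slc25a39 at 56.0, 58.4, 56.8 and 66.8 CPM (-0.55 ± 0.11, adjusted p = 0.000419) and Slc25a5 at 164, 191, 188 and 200.4 CPM (-0.36 ± 0.07, adjusted p = 0.000300). The mitoferrin Slc25a28 fell by 0.39 (adjusted p = 0.000715). Under library size alone Slc25a5 turned to 0.022, and the falls of Slc25a11, Slc25a28, Slc25a29 and Slc25a39 did not pass (adjusted p = 0.281, 0.908, 0.638 and 0.1196). Slc25a46, at 51.4, 45.7, 46.6 and 43.5 CPM in PRODH sham, was at -0.01 with a 95% interval of -0.21 to 0.19. Slc25a26, at 12.4, 11.9, 12.5 and 9.85 CPM, was at -0.18 ± 0.10 (adjusted p = 0.182).

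The 3 rises under PRODH were Slc25a36 (0.37 ± 0.10, adjusted p = 0.00540), Slc25a25 (0.40 ± 0.13, adjusted p = 0.0221) and Slc25a24 (0.40 ± 0.15, adjusted p = 0.0323). Slc25a25 was lost without PRODH sham library 4 or PRODH TAC library 1 (adjusted p = 0.0610 and 0.0613). Slc25a24, at 2.98, 3.18, 4.41 and 3.28 CPM in PRODH sham, overlapped with PRODH TAC and was lost without PRODH sham library 1, 2 or 4 or PRODH TAC library 1, 2 or 3 (adjusted p = 0.0512 to 0.115). Slc25a1, at 2.28, 2.18, 2.35 and 1.97 CPM in PRODH sham, was at 0.06 (interval -0.30 to 0.41). Slc25a45, at 1.98, 1.62, 1.60 and 2.10 CPM, was at 0.39 ± 0.20 (adjusted p = 0.1251).

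After sham surgery 1 of 39 members was lower in PRODH sham than in vector sham and 0 were higher by edgeR; DESeq2 and limma-voom also called 1 lower and 0 higher. This 1 call is 2.56% of the tested members, beside 5.00% of all genes, 2.81% higher and 2.20% lower. At an unadjusted p under 0.05, 4 members were higher and 4 lower, beside 8.82% and 7.50% of all genes. The carrier called was Slc25a25, at 3.27, 3.99, 4.13 and 2.89 CPM in PRODH sham, all below the 4.47 to 5.98 CPM of vector sham (-0.51 ± 0.14, adjusted p = 0.0244). Its call was lost without vector sham library 1 or 4 or PRODH sham library 1 or 4 (adjusted p = 0.0519 to 0.0854), with only the sham groups in the fit (0.0574) and under library size alone (0.0576). Groups also did not overlap for Slc25a30, at 4.26, 4.55, 4.18 and 3.94 CPM (-0.29 ± 0.12, adjusted p = 0.209), for Slc25a34, at 99.4, 88.9, 85.5 and 93.2 CPM (0.25 ± 0.08, adjusted p = 0.0580), and for Slc25a24 (0.54 ± 0.17, adjusted p = 0.0601). Non-overlap was thus seen for 2 higher and 2 lower members, beside 5.25% and 5.17% of all tested genes.

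Whether TAC acted differently under each virus was tested as an interaction. It passed for 11 of 39 members (28.2%), beside 26.8% of all genes, a share near the background. In 8 of them the TAC effect was more positive under PRODH (10.9% of all genes) and in 3 more negative (15.8%). The interaction was also negative for all 8 fibroblast and all 8 myeloid markers. Of 8 endothelial markers 5 were negative and 1 positive, and of 8 cardiomyocyte markers 4 were positive and 1 negative. Mural markers went both ways, with 3 of 8 positive and 2 negative. The part of these markers in the carrier values was not tested. The largest difference was that of Slc25a22 (1.02 ± 0.12, adjusted p = 2.08e-07): its fall was 2.58 times under the vector and 1.27 times under PRODH. Slc25a42 (0.72 ± 0.15, adjusted p = 0.000511), Slc25a46 (0.66 ± 0.14, adjusted p = 0.000995), Slc25a26 (0.52 ± 0.15, adjusted p = 0.00904) and Slc25a12 (0.43 ± 0.09, adjusted p = 0.000646) followed. Slc25a24 went the other way (-0.98 ± 0.21, adjusted p = 0.000932). Each of these 6 passed in every alternative that was run.

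Interaction calls that were less firm included that of Slc25a13 (0.26 ± 0.09, adjusted p = 0.0249), which was lost without vector TAC library 4 (adjusted p = 0.0513) and with no filter on low counts (0.0693). Slc25a1 (-0.71 ± 0.24, adjusted p = 0.0275) was lost in 8 of 16 fits that left out 1 library, namely vector sham 1 or 3, PRODH sham 1, 2 or 3, vector TAC 3 and PRODH TAC 3 or 4 (adjusted p = 0.0522 to 0.0878). It was also lost with no filter on low counts (0.0692), with DESeq2 (0.0523) and under library size alone (0.0513). Slc25a40 (0.46 ± 0.17, adjusted p = 0.0451) was lost without vector sham 1 or 4, PRODH sham 1, vector TAC 1, 3 or 4, or PRODH TAC 1, 3 or 4, and Slc25a28 (-0.33 ± 0.12, adjusted p = 0.0470) without any library except vector TAC 1. With no filter on low counts these calls were lost too (adjusted p = 0.0652 and 0.187). The Slc25a28 call was also lost with DESeq2 (adjusted p = 0.0903) and with its size factors in edgeR (0.0670). It was lost as well under library size alone (0.0920) and without mitochondrial genes and copies (0.0664). For Slc25a4 the interaction was 0.04 (95% interval -0.19 to 0.28), for Slc25a3 0.01 (-0.20 to 0.22), for Slc25a33 0.03 (-0.24 to 0.31) and for Slc25a20 0.11 (-0.07 to 0.29). Each of these 4 carriers fell after TAC under both viruses, and none passed the interaction test.

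**Figure D5:**
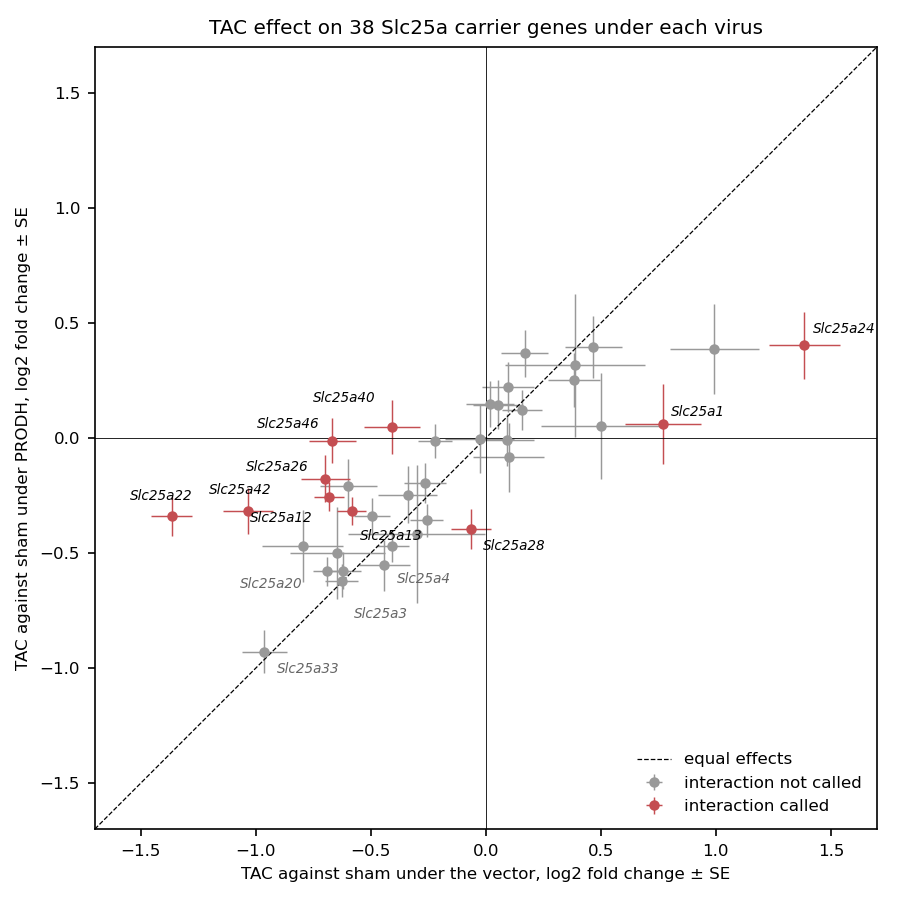
TAC effect on 38 carriers under the vector (horizontal) and under PRODH (vertical), as log2 fold change with SE; red points passed the interaction test and the dashed line marks equal effects. Slc25a33, Slc25a20, Slc25a3 and Slc25a4 lie near the line, while Slc25a22, Slc25a42 and Slc25a46 lie above it and Slc25a24 and Slc25a1 below it.

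Related carriers of the same substrate were also set against each other per length, as the level of one in percent of the other. Slc25a5 stood at 10.6% ± 0.195 (SD, n = 4) of Slc25a4 in vector sham and at 13.7% ± 1.00 after TAC. With PRODH it stood at 9.84% ± 0.287 after sham and 11.4% ± 0.0510 after TAC, and the ranges of the 4 groups were all separate. Slc25a33 stood at 134% ± 25.5 and 159% ± 30.9 of its paralog Slc25a36 in the sham groups, and at 61.0% ± 6.77 and 63.4% ± 4.27 in vector TAC and PRODH TAC. The ratio of Slc25a24 to Slc25a23 was 10.2% ± 1.83 in vector sham and 23.7% ± 2.21 in vector TAC. With PRODH it was 15.6% ± 2.49 after sham, above every vector sham library, and 19.3% ± 3.39 after TAC, where the groups overlapped (exact p = 0.114). Mitoferrin 1 (Slc25a37) stood at 27.4% ± 1.83 of mitoferrin 2 (Slc25a28) in vector TAC and at 37.2% ± 4.58 in PRODH TAC, with 26.04% ± 2.21 and 25.5% ± 3.76 in the sham groups of vector and PRODH. Slc25a13 (citrin) stood at 137% to 149% of Slc25a12 (aralar) in all group means, and PRODH sham lay above every vector sham library. Slc25a40 stood at 7.10% ± 1.82 of Slc25a39 in vector sham and at 7.06% ± 1.54 in vector TAC. With PRODH this ratio was 6.45% ± 0.828 after sham and 9.96% ± 1.72 after TAC, and these PRODH groups did not overlap. With 4 libraries against 4 an exact permutation test (two-sided) cannot go below p = 0.0286. Over 6 ratios and 4 comparisons, 24 in all, no adjusted value was below 0.0571, so none of these differences passed after adjustment.

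Genes that work with the carriers were read from 7 lists. Beside the counts that follow, 26.2% of all tested genes were lower and 30.3% higher after TAC under the vector. For PRODH against vector after TAC, 24.6% were lower and 18.5% higher. Among family members under other symbols Ucp3, the uncoupling protein of muscle, fell from 33.0 ± 3.02 to 6.75 ± 0.465 CPM (SD, n = 4) after TAC (-2.29 ± 0.09 log2 ± SE, adjusted p = 4.64e-19), more than any Slc25a member, and was higher with PRODH after TAC (1.08 ± 0.09). Ucp2 rose by 0.97 ± 0.10 and was lower with PRODH (-0.80 ± 0.09). Of the 4 tested genes of this list 2 were higher and 2 lower after TAC, and 1 higher and 2 lower with PRODH. The machinery that imports and inserts carriers fell in 12 of 16 cases after TAC, among them Timm29 of the carrier translocase (-0.38 ± 0.07) and the carrier receptor Tomm70a (-0.50 ± 0.09). With PRODH 4 of these 16 were higher and 3 lower, 43.75% in all, a share near the 43.1% of all genes called.

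Of 6 enzymes of the malate and aspartate shuttle and the glycerol phosphate shuttle, taken as one list, 5 fell after TAC. With PRODH 1 was higher, the glycerol phosphate dehydrogenase Gpd2 (0.39 ± 0.12), which belongs to the glycerol phosphate shuttle. Of 4 enzymes that act beside the carnitine carrier 3 fell and 1 rose after TAC, with Cpt2 at -0.93 ± 0.07 and Crat at -0.84 ± 0.07. With PRODH 3 of these were higher, Cpt2 by 0.39 ± 0.07 and Crat by 0.30 ± 0.07, and 1 was lower. All 3 outer membrane channels fell after TAC (Vdac3 at -0.69 ± 0.07). With PRODH Vdac3 was higher by 0.19 ± 0.07 and Vdac2 lower (-0.25 ± 0.07).

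Among 10 inner membrane carriers of other families 5 fell and 2 rose after TAC. Mpc2, a subunit of the pyruvate carrier, fell by 0.82 on the log2 scale, while Sfxn3 of the sideroflexins, a family that includes serine transporters, rose by 1.60 ± 0.13 and was lower with PRODH (-1.16 ± 0.12). Of 9 genes of the calcium uniporter and exchangers 4 rose and 4 fell. The uniporter's inhibitory subunit Mcub went from 0.597 ± 0.0839 to 1.83 ± 0.154 CPM (SD, n = 4), and 2 of the 9 were higher and 5 lower with PRODH. Ucp1, the uncoupling protein of brown fat, did not reach the count filter and is named here after its values were seen. It stood at 0.356 to 1.15 CPM in the vector sham libraries and at 0 in all but 1 of the other 12 (0.0413 CPM), and its part in the comparisons with vector sham was not tested.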

How the data were processed

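The authors deposited 1 table of estimated counts per gene model for 16 libraries, with gene lengths and 4 columns of their own group means, which were not used. Its values are estimated counts as the authors deposited them, made from sequenced reads; which aligner, counting tool, annotation and genome build they used was not given in the sources used here. Per the labels' protocols, RNA came from a TRIzol extraction with a DNase I step and went into a SMARTER mRNA-Seq kit. Of 57010 gene models 9538 held a fractional count. How the deposited gene length was defined is not stated, and it was used only for levels per kilobase.

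After rounding to whole numbers, counts went into edgeR 4.0.16 (R 4.3.3, limma 3.58.1). The filterByExpr filter, at a minimum count of 10 and a minimum total of 15, kept 14066 genes, which were scaled by TMM. A robust quasi-likelihood model with 4 group means was fitted to all 16 libraries, with no block. Benjamini-Hochberg adjustment ran over all tested genes within a comparison, at a threshold of 0.05. CPM used TMM-scaled library sizes, and fitted folds a prior count of 0.125. SE belongs to log2 fold changes and SD to CPM of 4 libraries. Ratios of related carriers were compared by exact permutation tests. The test was checked on simulated counts. Between libraries of a group the chi-square per gene was 2.87 to 30.7, so none was a repeat deposit.

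Values in every library were given for the 6 most abundant members per length in vector sham, the 6 largest rises and falls among called members in both main comparisons (mean of at least 1 CPM), and up to 6 members by smallest p in the interaction and after sham. Other genes came from fixed lists, with up to 3 per list by smallest p. Counts cover all tested members; 1 of them is not reported by name here or drawn. Members and lists were chosen with earlier results of these data known. Alternatives were DESeq2 1.42.0 and its size factors, limma-voom, library size alone, leaving out mitochondrial genes and copies, other count filters, only the groups compared, a replicate block and leaving out each library. Promoters came from RefSeq (GRCm38.p6), matched by symbol.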

Additional observations from a re-analysis of the deposited data

Results flagged for a closer look

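In 5 of 76 groups, over the 19 members with values given in every library, 1 library stood apart from the other 3 by Dixon's 95% limit; chance marks about 1 in 20 groups. Slc25a3 was high in vector sham library 2 (1404 CPM, others 1246 to 1272), and Slc25a5 in vector TAC library 2 (184 CPM, others 172 to 174). Slc25a1 was low in vector TAC library 2 (3.17 CPM, others 4.13 to 4.30), Slc25a30 in vector TAC library 4 (5.80 CPM, others 7.02 to 7.13) and Slc25a12 in PRODH sham library 1 (106 CPM, others 112). Leaving out the vector library concerned did not end the call of Slc25a3, Slc25a5, Slc25a1 or Slc25a30 after TAC under the vector. Without PRODH sham library 1 the calls of Slc25a12 for TAC under PRODH and for the interaction were also kept.

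The TAC effect differed between the viruses, by the interaction test, for 11 members, of which 10 are given. The log2 differences, PRODH minus vector, were 1.02 for Slc25a22, 0.72 for Slc25a42, 0.66 for Slc25a46, 0.52 for Slc25a26, 0.46 for Slc25a40, 0.43 for Slc25a12 and 0.26 for Slc25a13. They were -0.98 for Slc25a24, -0.71 for Slc25a1 and -0.33 for Slc25a28.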

How the results depend on the processing

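Library size alone changed the counts most. TAC under the vector then had 15 higher and 11 lower members, TAC under PRODH 16 and 4, PRODH after sham 0 lower and the interaction 1 lower, while the 20 calls for PRODH after TAC were all made again. It turned the sign of TAC under the vector for Slc25a5 (0.095), Slc25a16 (0.093), Slc25a28 (0.29), Slc25a38 (0.015) and Slc25a51 (0.13). Of these, Slc25a28 was not called in the main fit (-0.07). For TAC under PRODH the sign turned for Slc25a5 (0.022), Slc25a12 (0.12), Slc25a13 (0.060), Slc25a22 (0.036), Slc25a34 (0.038) and Slc25a42 (0.059). The sign also turned for Slc25a17 (0.37), Slc25a35 (0.37), Slc25a46 (0.37) and Slc25a51 (0.36). In the main fit these last carriers were near 0 and not called (-0.008, -0.004, -0.011 and -0.013). In both TAC comparisons no carrier called lower in the main fit was called higher under library size alone. With only the sham groups fitted, PRODH after sham had 1 higher and 0 lower members. The interaction had 1 lower member with DESeq2 and with no filter on low counts, where 9 and 7 of the 11 calls were kept; with no filter 19 of 20 calls for PRODH after TAC were kept. Leaving out each library gave 5 to 6 higher and 21 to 22 lower members for TAC under the vector, 11 to 14 and 5 to 6 for PRODH after TAC, 1 to 3 and 12 to 15 for TAC under PRODH, 0 to 1 and 0 to 1 for PRODH after sham, and 6 to 9 and 1 to 3 for the interaction. The cause of these shifts was not tested. Limma-voom changed no call. Replicate numbers showed no pairing: the correlation of deviations between same-numbered libraries averaged 0.012 over 24 pairs, with 3 pairs over 0.1. Between differently numbered libraries of different groups the correlation averaged -0.004 over 72 pairs, with 8 over 0.1. With the replicate block the 27, 20, 17 and 1 calls of the simple comparisons were all kept, and 10 of 11 interaction calls, without Slc25a40 (adjusted p = 0.0576). Depth limits the low members: 8 of 47 could not be tested.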
